A study of Homo sapiens with 4 samples.

Results

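The AP-1 transcription factor genes were examined in a chromatin immunoprecipitation sequencing (ChIP-seq) experiment for the histone variant H3.3 in MRC5_VA, an SV40-immortalized line of human fetal lung fibroblasts that the submitters' labels call MRC5. The 8 genes were the 4 Fos family genes FOS, FOSB, FOSL1 and FOSL2, the 3 Jun family genes JUN, JUNB and JUND, and ATF3, of 20033 protein-coding genes in the annotation. Each was described by every deposited H3.3 interval that overlapped its gene body or lay within 10 kb of any of its annotated transcription start sites (TSSs), in the list from untreated cells and in the list from cells that had recovered for 3 h after 10 J/m2 UV-C. This choice gave 64 of 88822 distinct intervals without UV and 57 of 77183 after UV. The genes were selected on the presence, width and summits of these intervals, so their values are a description with no test. A window of 5 kb in place of 10 kb held 49 and 42 intervals, and one of 20 kb held 106 and 90. Both libraries came from the same wild-type line, and each was made from pooled DNA of 3 replicates, so there was 1 library per condition, no replicate spread and no p-value. A change in the share of cells that carry a peak cannot be told apart from a change in signal per cell.

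AP-1 is a dimer of basic leucine zipper proteins. Jun proteins can pair with themselves, with Fos proteins or with ATF family members, whereas Fos proteins need a partner such as a Jun protein. The dimers bind the short TRE and CRE sequence elements, and FOS, FOSB, JUN, JUNB and ATF3 are immediate early or stress-induced genes, well known for being switched on by UV light and by growth factors without new protein synthesis. H3.3 is the H3 form deposited outside of DNA replication, found at promoters, enhancers and transcribed gene bodies with rapid nucleosome turnover.

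The list without UV held 102949 peaks, of which 102924 lay on the main chromosomes, and the list after UV held 89740 and 89709. A row is a summit, so an interval with several summits fills several rows, and 12.21% of distinct intervals without UV and 12.45% after UV had more than one. Intervals had a median width of 435 bp in the first list and 449 bp in the second and covered 49.62 Mb and 44.21 Mb. The depth of the libraries is unknown from the lists. Peak strength is therefore given as the authors' −log10 q (the peak caller's adjusted p-value on a negative log scale) with its percentile among all distinct intervals of the same list. As levels, q values are not compared between lists. Alternatives with a minimum −log10 q apply the same cutoff to both lists, so their results depend on the unknown depths.

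Every AP-1 gene had H3.3 intervals in both conditions, as did 66.3% of all protein-coding genes. The genes fell into a densely covered set and a sparse set. FOSL1, JUND, JUNB and FOSL2 had intervals over 24.3% to 70.1% of their windows without UV and 28.8% to 60.3% after UV. JUN, FOSB, FOS and ATF3 had 2.68% to 10.5% without UV and 5.62% to 15.7% after UV, the lowest share being that of ATF3, which has the longest window. The median over the 8 genes was 17.4% without UV and 22.3% after UV, and the median over all protein-coding genes was 1.81% in both lists. Over protein-coding genes with covered bases in both lists, as all 8 had, the median was 4.38% without UV and 4.36% after UV.

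Fewer intervals and slightly more covered bases were listed after UV. All 8 genes together held 64 intervals and 103 summits without UV and 57 intervals and 96 summits after UV, which is 0.891 and 0.932 times as many, and over all protein-coding genes these ratios were 0.916 and 0.927. The covered length was 50335 bp in untreated cells and 52374 bp in irradiated cells, or 1.04 times, against 0.96 times over all protein-coding genes. This ratio was 0.998 (34780 bp and 34717 bp) when only intervals nearest to the gene's own TSS were kept, and the ratio of summits was 1.04 (73 and 76) at a minimum −log10 q of 5, so neither direction is stable to the processing. Fewer intervals after UV were listed at 5 AP-1 genes (FOSL1, FOSL2, JUN, JUNB and JUND), where the share of all protein-coding genes with fewer was 32.9%. More were listed at FOSB and ATF3, where the share of all genes was 25.3%, and FOS had 2 in each list. More bases were covered after UV at 5 genes (FOS, FOSB, FOSL2, JUND and ATF3; 37.4% of all genes) and fewer at 3 (FOSL1, JUN and JUNB; 37.1% of all genes). These shares include genes with no interval in a list. Of the 13285 protein-coding genes with covered bases in both lists, as all 8 had, 6553 had more bases after UV and 6726 fewer. Of the same genes, 4132 had more intervals and 5875 fewer. The directions at the AP-1 genes are values of 1 library each. For FOSB, FOSL1, JUN and JUND the direction in covered bases turned under at least 1 other choice of window or threshold, given with each gene.

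**Figure D1:**
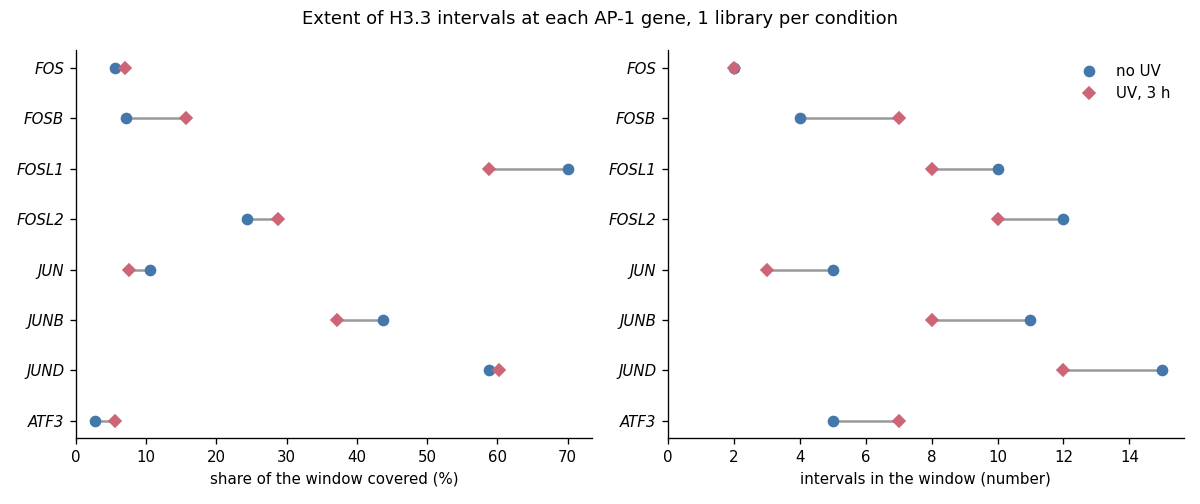
Left, share of each gene's window covered by H3.3 intervals (%), and right, number of intervals in the window, for the 8 AP-1 genes without UV (blue circles) and 3 h after UV (red diamonds), 1 library each. FOSB went from 7.07% to 15.7% and FOSL1 from 70.1% to 58.8%, while FOS kept 2 intervals.

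FOS, the prototype immediate early gene and partner of the Jun proteins, lies on the plus strand of chr14:75278826-75282230 (hg38, 4 exons). Without UV it had 2 intervals, both upstream. The stronger was chr14:75276920-75277785, 866 bp wide, with a summit 1659 bp upstream of the canonical TSS (−log10 q 24.0, percentile 94.4 of its list), and the weaker, 339 bp wide, had its summit 2367 bp upstream (−log10 q 3.25, percentile 25.9). After UV the strong upstream interval was again listed, at chr14:75276939-75277838, 900 bp wide, with its summit 1517 bp upstream (−log10 q 81.7, percentile 99.2). Both versions shared 847 bp and their summits lay 142 bp apart. The weak upstream interval had no overlapping interval in the list after UV.

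The list after UV held a second FOS interval, chr14:75278779-75279379, which ran from 49 bp upstream of the canonical TSS to 551 bp downstream and had no overlapping interval without UV. It was 601 bp wide with 2 summits. One lay in the 5′ UTR exon 90 bp into the gene and was among the weakest rows of its list (−log10 q 1.43, percentile 0.705). The other lay in the intron 343 bp into the gene (−log10 q 4.53, percentile 36.5). FOS was thus covered at its start in 1 list only, by an interval below the median strength of that list. Intervals covered 1205 bp of the FOS window in untreated cells and 1501 bp in irradiated cells, a ratio of 1.25. The covered share of the window changed by 1.39 percentage points, which stood at percentile 82.1 of all protein-coding genes. For each gene this percentile ranks the change in share, and not the ratio or the difference in bases. At a minimum −log10 q of 5, which removes the interval over the FOS start, the difference of 296 bp became 34 bp (866 bp and 900 bp), and with a 20-kb window it was 624 bp. Among other protein-coding genes, those closest to FOS in bases covered within 10 kb of a TSS in the 2 lists were HSPA6, a stress-inducible HSP70 chaperone (1215 bp and 1496 bp), PPIC, a peptidyl-prolyl isomerase (1201 bp and 1488 bp), and HSD11B2, a cortisol-inactivating enzyme (1201 bp and 1525 bp).

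The sequence of the strong upstream FOS peak is shown because it was the highest-ranked H3.3 summit of this gene in both lists, and the stretch upstream of the TSS because it is where the interval after UV begins. The first is the 300 bp around the summit after UV, chr14:75277161-75277460 (hg38, plus strand), with its GC box, the hexamer GGGCGG or its reverse complement CCGCCC, in capitals. The second is the 250 bp before the canonical TSS, chr14:75278578-75278827 (plus strand), with the 49 bases inside the interval after UV in capitals; no base of it was inside an interval without UV.
FOS upstream summit after UV: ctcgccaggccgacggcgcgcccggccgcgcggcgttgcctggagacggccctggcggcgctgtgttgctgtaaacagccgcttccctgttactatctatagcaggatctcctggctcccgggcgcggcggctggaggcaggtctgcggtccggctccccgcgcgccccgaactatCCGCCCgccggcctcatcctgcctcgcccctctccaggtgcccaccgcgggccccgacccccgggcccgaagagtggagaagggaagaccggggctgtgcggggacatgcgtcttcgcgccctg
FOS upstream of the TSS: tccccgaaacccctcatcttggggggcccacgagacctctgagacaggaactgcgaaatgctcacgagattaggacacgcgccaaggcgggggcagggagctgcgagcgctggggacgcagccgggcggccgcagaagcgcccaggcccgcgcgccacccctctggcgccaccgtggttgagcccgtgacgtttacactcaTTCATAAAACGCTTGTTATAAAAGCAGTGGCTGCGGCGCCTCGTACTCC

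FOSB, a Fos family protein with a role in lasting responses to stimulation, lies on the plus strand of chr19:45467995-45475179 with 8 annotated TSSs. Its 4 intervals without UV covered 1632 bp, and its 7 after UV covered 3630 bp, 2.22 times as many (percentile 97.6 of the change in share). The 2 strongest summits in both lists lay in coding exons. The one 2896 bp downstream of the canonical TSS without UV and 2905 bp after UV differed by 9 bp (−log10 q 11.6, percentile 82.8, and −log10 q 42.8, percentile 96.5). The one at 4702 bp and 4712 bp differed by 10 bp (percentiles 80.9 and 94.2). These exon peaks thus stayed in place and stood higher within the list after UV.

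The added FOSB intervals after UV were weak. Those with summits 6083 bp and 1999 bp upstream and 12137 bp downstream of the canonical TSS, which had no overlapping interval without UV, stood at percentiles 4.89, 21.9 and 2.87 of the list. The last has its nearest coding TSS at ERCC1, a nucleotide excision repair gene. Where only peaks with −log10 q of at least 5 were kept, the difference for FOSB turned, from 1998 bp more after UV to 665 bp fewer (1632 bp and 967 bp). Intervals without UV at −log10 q 5.056 and 5.007 just passed this minimum, and their counterparts after UV, at 4.22 and 2.328, did not. No interval in either list touched the canonical FOSB promoter (250 bp before to 50 bp after the TSS), and the interval that came to overlap a TSS after UV did so at an alternative TSS inside the gene, from which the counterpart without UV was 31 bp away.

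FOSL1, which encodes Fra-1, a Fos family member without the transactivation domain of FOS, lies on the minus strand of chr11:65892049-65900573 and was the most densely covered of the 8 genes. It had 10 intervals with 25 summits over 14148 bp without UV and 8 intervals with 18 summits over 11862 bp after UV. The ratio was 0.838. The covered share of its window went from 70.1% to 58.8%, a change of -11.3 percentage points. That change in share stood at percentile 0.265 of all protein-coding genes, the lowest of the 8. The interval over the TSS was chr11:65899962-65901173 (1212 bp) without UV and chr11:65899089-65901094 (2006 bp) after UV, the second of which also took in the place of a separate 565-bp interval in the list without UV. Its strongest summit, 165 bp downstream of the TSS without UV and 145 bp after UV, ranked at percentiles 99.6 and 99.7 (−log10 q 67.9 and 106.9).

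Other differences at FOSL1 lay inside and upstream of the gene. A 3208-bp interval with 5 summits over the middle of the gene without UV was overlapped by 3 intervals after UV. One of these, 3776 bp wide with 6 summits, ran into the 3′ UTR. It also took in the place of a separate interval without UV, 2724 bp wide with 5 summits. Upstream, intervals with summits 1637 bp and 5970 bp from the TSS had no counterpart after UV (percentiles 38.4 and 16.2). The highest-ranked interval in the window after UV, chr11:65890371-65892095, overlapped only the 3′ end of FOSL1. Its summit lay outside the gene, 9311 bp downstream of the FOSL1 TSS and 404 bp from a TSS of the neighbouring CCDC85B (−log10 q 152.3, percentile 99.9). When the window was widened to 20 kb the FOSL1 difference turned to 643 bp more after UV (21903 bp and 22546 bp), and with a minimum −log10 q of 5 it was 478 bp fewer.

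FOSL2, which encodes the related protein Fra-2, lies on the plus strand of chr2:28392448-28417317. It had 12 intervals with 16 summits over 8477 bp without UV and 10 intervals with 18 summits over 10044 bp after UV. The ratio was 1.18 (percentile 93.6 of the change in share). A wide interval lay over the start in both lists, chr2:28392211-28393916 (1706 bp) and chr2:28391700-28393937 (2238 bp), each with 3 summits and with the strongest in the 5′ UTR exon at 209 bp and 221 bp (percentile 98.2 in both). The intervals therefore agreed in place at the 3′ side, and the version after UV began farther upstream.

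The highest summit of FOSL2 lay upstream of the gene, 2390 bp from the TSS without UV and 2386 bp after UV, at percentiles 99.3 and 99.7 (−log10 q 56.5 and 114.9). In the 3′ part of the gene 3 separate intervals without UV, 439 bp, 616 bp and 422 bp wide, were met by 1 interval of 2823 bp with 5 summits after UV, chr2:28408350-28411172. A count of intervals falls and the covered length grows when neighbours join in this way. The direction for FOSL2 was the same under all 7 alternatives tried, from 1174 bp to 2621 bp more after UV. The 300 bp around the upstream summit after UV, chr2:28390322-28390621 (plus strand), are shown because no member summit outside FOSL1 reached a higher −log10 q; GC boxes are in capitals.
FOSL2 upstream summit after UV: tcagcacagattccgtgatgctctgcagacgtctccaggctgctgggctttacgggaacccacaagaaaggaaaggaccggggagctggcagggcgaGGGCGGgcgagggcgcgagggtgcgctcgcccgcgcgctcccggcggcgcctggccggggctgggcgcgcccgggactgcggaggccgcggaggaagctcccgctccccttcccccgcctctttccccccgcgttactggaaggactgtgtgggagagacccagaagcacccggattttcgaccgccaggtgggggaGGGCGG

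JUN, whose product c-Jun forms AP-1 with itself or with Fos proteins and is phosphorylated by the JNK kinases after UV, is a 1-exon gene on the minus strand of chr1:58776845-58784048. It had 5 intervals over 2101 bp without UV and 3 over 1500 bp after UV, a ratio of 0.714 (percentile 7.59 of the change in share). All 3 intervals after UV had counterparts, with summits 27 bp, 49 bp and 40 bp apart. In the 5′ UTR the summit at 507 bp without UV and 534 bp after UV ranked at percentiles 98.8 and 95.4. In the coding sequence, the one at 1547 bp and 1498 bp ranked at 97.5 and 89.6. In the 3′ UTR, the one at 2178 bp and 2218 bp ranked at 48.5 and 84.2. The 2 summits nearest the JUN start thus stood lower within the list after UV and the third stood higher.

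The intervals of JUN without a counterpart after UV were chr1:58784710-58785071, 738 bp upstream of the TSS and near the bottom of its list (−log10 q 1.8, percentile 5.13), and chr1:58780449-58780729, 3462 bp downstream (−log10 q 5.77, percentile 58). Without peaks under −log10 q 5 the JUN difference became 42 bp more after UV. JUN was the only 1 of the 8 genes with no interval over any TSS in either list: the nearest intervals began 143 bp and 181 bp into the gene, and its 300-bp promoter was not covered.

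**Figure D2:**
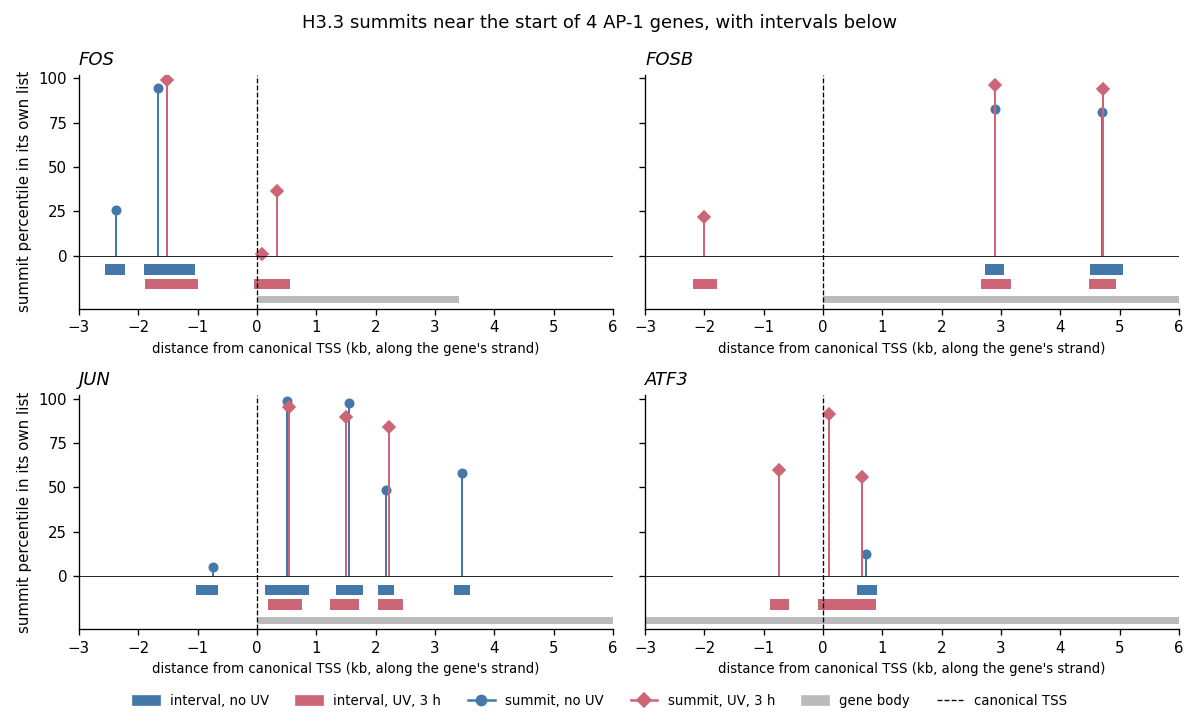
Summits of FOS, FOSB, JUN and ATF3 by distance from the canonical TSS (kb along the gene's strand), with height giving the percentile of the summit's −log10 q in its own list, without UV (blue circles) and after UV (red diamonds); bars below zero are the intervals and the grey bar is the gene body. The upstream FOS summits stand at 94.4 and 99.2, and ATF3 has a summit at 91.3 beside its TSS after UV only.

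JUNB, a Jun family protein that is a weaker activator than c-Jun in many settings, is a 1-exon gene on the plus strand of chr19:12791486-12793315. It had 11 intervals with 19 summits over 8734 bp without UV and 8 with 14 summits over 7443 bp after UV. The ratio was 0.852 (percentile 1.82 of the change in share). The interval over the start hardly differed, with 1525 bp at chr19:12791163-12792687 and 1516 bp at chr19:12791166-12792681, and its strongest summit lay at 285 bp and 253 bp (percentiles 93.7 and 95.3). Upstream, the summits 1685 bp and 1720 bp before the TSS ranked at percentiles 96.9 and 99. The summit 7456 bp upstream was at the same base in both lists (percentiles 98.1 and 98.4).

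The 3 JUNB intervals with no counterpart after UV, with summits 5973 bp upstream and 1644 bp and 3345 bp downstream, stood at percentiles 13.3, 38.2 and 46.4. The direction for JUNB held under all 7 alternatives but nearly vanished when weak peaks were removed, with 4 bp fewer after UV at a minimum −log10 q of 5. In the list without UV 5 of the 11 intervals, and after UV 3 of the 8, had their nearest coding TSS at the neighbouring HOOK2, which encodes a microtubule linker.

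JUND, the Jun family gene known for steady expression rather than induction, is a 1-exon gene on the minus strand of chr19:18279694-18281622. It had 15 intervals with 27 summits over 12165 bp without UV and 12 with 24 summits over 12470 bp after UV, a ratio of 1.03. This difference of 305 bp turned under 5 of the 7 alternatives, to between 335 bp and 1008 bp fewer after UV, so JUND has no direction that is stable to the processing. Over the gene itself the intervals matched closely, with 1487 bp at chr19:18280026-18281512 and 1592 bp at chr19:18279954-18281545. Each held 3 summits, of which the strongest lay in the 3′ UTR at 1299 bp and 1326 bp (percentiles 98.1 and 98.2) and another at the same base in the coding sequence, 330 bp from the TSS (percentiles 97.6 and 95.6). A separate interval just upstream of the TSS had its summit at 310 bp and 396 bp (percentiles 27.3 and 69.1). Downstream, in the direction of IQCN, a 2225-bp interval with 4 summits was overlapped by one of 3264 bp with 5 summits after UV. The interval after UV also took in the place of a separate 792-bp interval without UV. The strongest summit of the 2225-bp interval ranked at percentile 98, and that of the 3264-bp interval at 82.9.

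ATF3, a stress-induced ATF family member that pairs with Jun proteins and can repress as well as activate, lies on the plus strand of chr1:212565334-212620777 with 7 annotated TSSs. It had 5 intervals over 1873 bp without UV and 7 over 3924 bp after UV, a ratio of 2.1 (percentile 89.8 of the change in share). Without UV no interval of ATF3 stood above percentile 70.9 of its list, the lowest top rank of the 8 genes. The only one within 1 kb of a TSS was chr1:212609336-212609675, 340 bp wide in the intron 719 bp downstream of the canonical TSS (−log10 q 2.32, percentile 12.2). After UV it was overlapped by chr1:212608674-212609658, a 985-bp interval that began 87 bp before the canonical TSS, with summits in the 5′ UTR exon at 108 bp (−log10 q 25.2, percentile 91.3) and in the intron at 655 bp (percentile 55.9).

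A further ATF3 interval after UV, chr1:212607871-212608182, had its summit 736 bp upstream of that TSS and no counterpart (−log10 q 7.28, percentile 60). Farther upstream, intervals at 29712 bp and 13383 bp were listed after UV only (percentiles 57 and 61.7) and one at 28743 bp without UV only (percentile 12.2). At the distant 5′ end, the summits 50300 bp and 50302 bp upstream matched within 2 bp (percentiles 70.9 and 88.8). ATF3 was covered more after UV under all 7 alternatives, by 1753 bp to 3516 bp. The larger differences arose where a minimum −log10 q removed its weak intervals from the list without UV, which left 408 bp without UV and 3924 bp after UV at a minimum of 5.

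The 250 bp upstream of the canonical ATF3 TSS, chr1:212608511-212608760 (hg38, plus strand), are shown with the 87 bases inside the interval after UV in capitals. None of these bases was inside an interval without UV.
ATF3 upstream of the TSS: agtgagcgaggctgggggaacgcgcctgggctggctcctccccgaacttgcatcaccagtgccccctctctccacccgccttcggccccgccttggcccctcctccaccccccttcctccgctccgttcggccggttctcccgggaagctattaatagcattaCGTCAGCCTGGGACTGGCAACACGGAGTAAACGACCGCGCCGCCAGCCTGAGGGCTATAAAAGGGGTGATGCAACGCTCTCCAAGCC

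**Figure D3:**
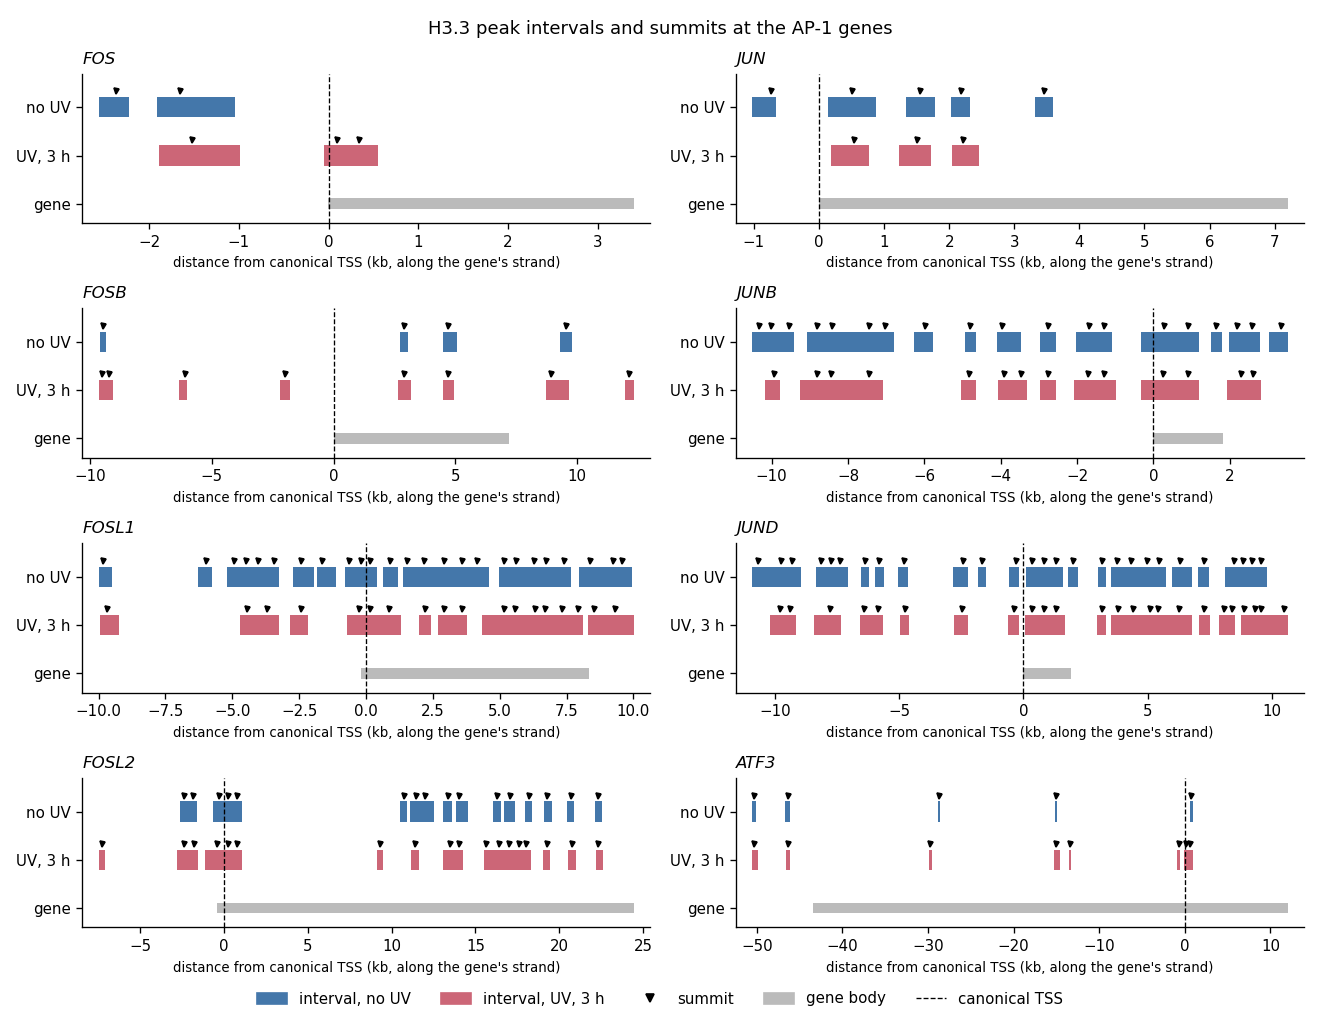
Intervals (bars) and summits (triangles) of the 8 AP-1 genes by distance from the canonical TSS (kb along the gene's strand, dashed line), without UV (blue, top row) and after UV (red, middle row), with the gene body in grey; each panel has its own scale. FOSL1, FOSL2, JUNB and JUND carry wide clusters in both lists, while FOS, FOSB, JUN and ATF3 carry 2 to 7 separate intervals.

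An interval within 1 kb of a TSS was listed at 7 of the 8 genes without UV and at all 8 after UV, where the shares of all protein-coding genes were 48.0% and 54.0%. FOS was the gene listed only after UV (9.20% of all genes), and no AP-1 gene was listed only without UV (3.20%). The FOS case lies at the limit: its upstream interval ended 1041 bp from the nearest TSS without UV, 41 bp outside, and 988 bp after UV, 12 bp inside. The interval over the FOS start in the list after UV met the rule by itself. With a limit of 2 kb or 3 kb, all 8 genes were listed in both conditions.

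Intervals that overlapped a TSS showed a larger difference. They were listed at 4 genes without UV (FOSL1, FOSL2, JUNB and JUND; 29.8% of all genes) and at 7 after UV (39.6% of all genes). FOS, FOSB and ATF3 were the 3 listed only after UV, where the share of all protein-coding genes was 12.1%, and none was listed only without UV, where it was 2.30%. Gains of this kind were thus common over the genome and were more frequent than losses. Of the 300-bp canonical promoters, 3 AP-1 genes had more bases covered after UV (25.4% of all genes) and none fewer (4.80%). These were FOS with 0 and 99 bases, ATF3 with 0 and 137, and JUND with 66 and 83. FOSL1, FOSL2 and JUNB were covered over all 300 bases in both lists, and FOSB and JUN over none.

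Around the TSS the 8 genes were covered over 45.1% of bases within 1 kb on either side without UV and 55.8% after UV, against 12.6% and 18.1% for all protein-coding genes. Between 1 kb and 10 kb upstream they were covered over 23.7% and 21.8%, and the same distances downstream over 26.1% and 25.4%, where all genes had 4.72% and 4.7% upstream and 5.43% and 5.42% downstream. Within 10 kb of the canonical TSS, these averages were higher after UV only in the part within 1 kb, both for these genes and for all genes. Windows reach farther than this profile: FOSL2, with 1567 bp more after UV in its window, had 4511 bp and 4699 bp within 10 kb of a TSS. FOSB, with 1998 bp more in its window, had 1624 bp more around the canonical TSS alone (1632 bp and 3256 bp). None of these bases lay in its canonical promoter. For the AP-1 genes the highest 200-bp bin after UV, from 200 bp to 400 bp downstream, was covered at 62.5% without UV and 87.5% after UV, and the same bin over all genes at 21.3% and 30.5%.

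**Figure D4:**
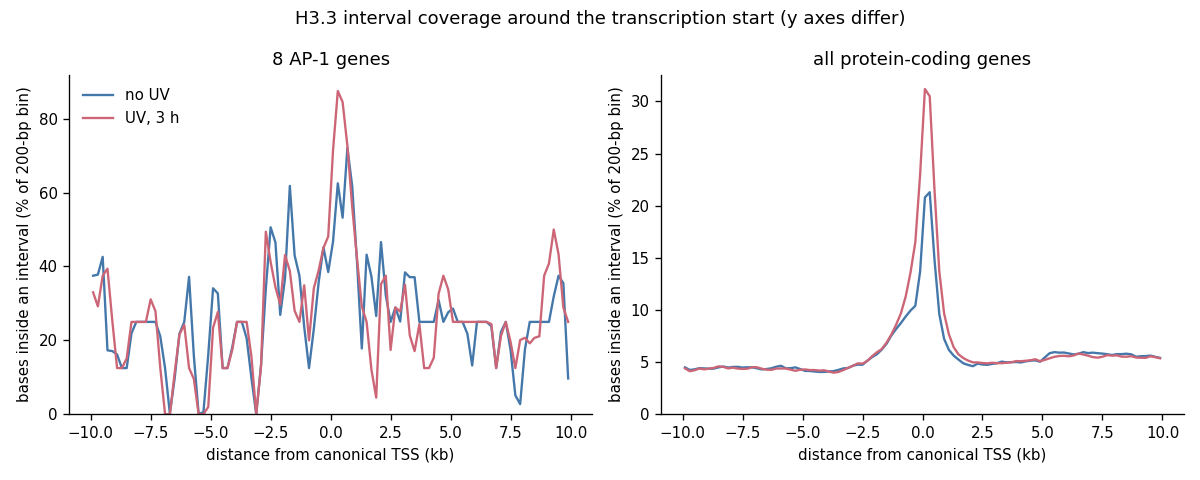
Share of bases inside H3.3 intervals (%) in 200-bp bins by distance from the canonical TSS (kb), for the 8 AP-1 genes (left) and all protein-coding genes (right), without UV (blue) and after UV (red); the y axes differ. From 200 bp to 400 bp downstream the AP-1 genes reach 62.5% and 87.5%, and all genes 21.3% and 30.5%.

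Most AP-1 intervals were listed in both conditions. Of the 64 intervals without UV, 52 (81.2%) overlapped an interval after UV by at least 1 bp, against 57.3% of all intervals, and of the 57 after UV, 48 (84.2%) overlapped one without UV, against 65.6%. Intervals at these genes were also wide, with a median of 501.5 bp in untreated and 610 bp in irradiated cells, and a wide interval is more readily overlapped. Those with several summits numbered 18 (28.1%) without UV and 23 (40.4%) after UV. Summits in overlapping intervals lay a median of 40 bp (untreated list) and 37.5 bp (irradiated list) from the nearest summit of the other list, and 51 of 91 and 50 of 86 lay within 50 bp.

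Intervals found in 1 list only had a median rank below the middle of that list, with exceptions. The 12 without a counterpart in the untreated cells had −log10 q from 1.8 to 6.67 (median percentile 30.6), and the 9 after UV had 1.63 to 7.67 (median percentile 24.9). Those above the median of their list were the 3 of ATF3 after UV (percentiles 57, 60 and 61.7) and, without UV, 1 of JUND (64.7) and 1 of JUN (58). No interval without a counterpart reached percentile 90, which 20 of the 52 and 20 of the 48 intervals with a counterpart did. The strongest interval of each gene ranked at a median percentile of 98.1 without UV and 98.6 after UV, against 86.8 and 87.4 over all protein-coding genes with an interval. A maximum over more intervals tends to rank higher. The AP-1 genes had a median of 7.5 intervals in each list. Protein-coding genes with covered bases in both lists had a median of 5 and 4, with top ranks of 88 and 88.8. The part of interval number was not tested. Between the lists, this top rank went from 82.8 to 96.5 at FOSB, from 70.9 to 91.3 at ATF3 and from 98.8 to 95.4 at JUN.

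**Figure D5:**
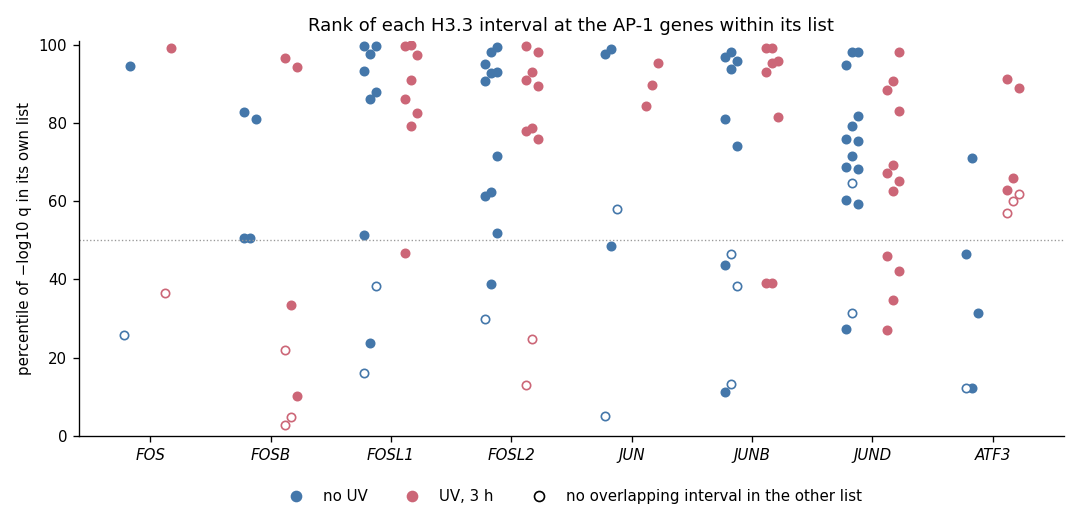
Percentile of −log10 q in its own list for every interval at each AP-1 gene, without UV (blue) and after UV (red); open circles have no overlapping interval in the other list and the dotted line is the median of a list. Open circles all lie below percentile 90, the highest being at 64.7 without UV and 61.7 after UV.

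The TRE (TGACTCA or its reverse complement TGAGTCA), which AP-1 itself binds, was found at few of these summits. In the 300 bp around each summit it was found at 4 of 103 AP-1 summits without UV (3.88%) and at 6 of 96 after UV (6.25%), against 5.19% and 4.93% of all summits. The CRE (TGACGTCA), bound by ATF and Jun dimers, was found at 1 summit without UV (0.971%, against 0.266%) and at none after UV (0.305% of all). A CArG box, the serum response factor element, was found at none in either list (0.667% and 0.595% of all summits). An ETS element (CCGGAAGT or ACTTCCGG) was found at 1 and 0 (0.308% and 0.448%). The GC box (GGGCGG or CCGCCC), to which SP1 binds, was found at 45 (43.7%, against 21.5%) and 44 (45.8%, against 29%). AP-1 intervals were also richer in G and C than the lists, with a median GC content of 57.2% against 49.2% without UV and 56.7% against 50.8% after UV, and the part of base composition in the GC box share was not tested. Both strands were searched, summits closer than 300 bp share sequence, and none of these strings contains another.

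Windows that hold a TRE are shown for the sequence around it. The JUNB window chr19:12782901-12783200 (plus strand), around the summit 8435 bp upstream of the TSS after UV (percentile 93.4; 8430 bp and percentile 93 without UV), held 3 TREs, the most of any AP-1 summit, shown in capitals. The FOSL1 window chr11:65899348-65899647 (minus strand), around the summit 890 bp downstream without UV, held a TRE, in capitals; the nearest summit after UV lay 44 bp away, and this TRE was outside its window. Other elements in these windows are in lower case.
JUNB distal summit after UV: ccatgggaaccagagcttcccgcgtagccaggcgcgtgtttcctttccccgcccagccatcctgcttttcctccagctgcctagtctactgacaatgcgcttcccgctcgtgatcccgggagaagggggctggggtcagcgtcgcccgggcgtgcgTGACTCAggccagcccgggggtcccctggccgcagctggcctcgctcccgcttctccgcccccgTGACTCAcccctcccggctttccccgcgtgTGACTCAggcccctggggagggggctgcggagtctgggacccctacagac
FOSL1 intron summit without UV: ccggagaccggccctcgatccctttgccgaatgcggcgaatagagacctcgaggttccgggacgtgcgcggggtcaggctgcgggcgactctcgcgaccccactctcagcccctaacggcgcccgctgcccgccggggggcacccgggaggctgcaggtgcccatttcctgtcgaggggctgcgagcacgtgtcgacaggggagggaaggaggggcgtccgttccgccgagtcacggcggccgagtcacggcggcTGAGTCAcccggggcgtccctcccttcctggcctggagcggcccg

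In the 300-bp canonical promoters (250 bp before to 50 bp after the TSS) a TRE was found at FOSL1 and FOSL2 (3.57% of all promoters), a CRE at JUND (2.69%), a CArG box and an ETS element at none (1.2% and 6.14%), and a GC box at FOS, FOSB, FOSL1, FOSL2, JUN and JUND (61.3%). Only exact matches were counted, so a variant of an element, or one farther upstream than 250 bp, was missed. A match is a string of letters in these windows and not a measured binding site.

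Other genes of the pathway were read by the same 1-kb rule, by which 48.0% of all protein-coding genes were listed without UV and 54.0% after UV. Of 16 other basic leucine zipper partners, 10 had a TSS interval without UV and 11 after UV. BATF2, JDP2 (a Jun dimerization protein) and ATF7 were each listed in 1 condition, the first 2 after UV at percentiles 16.9 and 55.9 and ATF7 without UV at 40.9. Of 16 upstream regulators, which include kinases and serum response factor partners, 12 were listed without UV and 15 after UV. Among those listed only after UV were the kinase genes MAPK9 (JNK2; percentile 27) and MAP2K4 (a JNK activator; percentile 26.1). Of 15 known AP-1 target genes, the same 10 were listed in both conditions, and the 5 in neither were MMP1, MMP3, MMP10, CXCL8 and TIMP1. More bases were covered after UV at 6, 6 and 5 genes of these lists and fewer at 9, 10 and 8, where the shares of all genes were 37.4% and 37.1%.

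The labelled cell type was checked against marker genes by the same rule (48.0% and 54.0% of all genes), where an interval is no measure of expression. Of 10 fibroblast markers, 7 had a TSS interval without UV and 8 after UV, PRRX1 after UV only (percentile 60), and COL3A1 and THY1 had none. Of 5 epithelial markers 3 had one in both lists, and EPCAM and NKX2-1 had none. Of the blood markers, PTPRC, SPI1, CD3E and GATA1 had none in either list.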

How the data were processed

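H3.3 ChIP-seq (antibody Abcam ab176840) of untreated MRC5_VA cells was set beside that of cells 3 h after 10 J/m2 UV-C, with 1 library each. Groups came from the sample labels; the input libraries were not analysed here. The methods state paired-end reads, Trimmomatic, BWA, duplicate removal by Biobambam2 and hg38; the submitters' processing notes list bcl2fastq 2.17, Trimmomatic 3.36, BWA 0.7.12 and MACS 1.4.2 without roles. The control and threshold for the H3.3 peaks are not given in the sources used here. The lowest deposited −log10 q was 1.302 in both lists.

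The authors deposited, for each peak, a score, a fold enrichment (a linear ratio), and a −log10 p and −log10 q, all made within 1 library. The depth of the libraries is unknown, and a shallower library yields fewer and weaker peaks at a fixed threshold. Here, rows with the same start and end were joined into distinct intervals, and windows were set as the gene body plus 10 kb around every TSS of GENCODE 44, with the canonical TSS as origin for distances. The interval ends lie within the hg38 chromosome lengths. Sequence was read from hg38. Percentiles of −log10 q give the share of distinct intervals of the same list that are weaker. The counts of genes and intervals were made with Python 3.11.15, numpy 2.4.6 and pandas 2.3.3, and the interval rules were tested on simulated data. No test between conditions was made. The genes and the pathway and marker lists were chosen with earlier results of these data known. Named genes were the 8 members, the pathway and marker genes with a TSS interval in 1 list only or in neither, and the 3 genes closest to FOS. The alternatives were other windows and TSS limits, the canonical TSS alone, a minimum −log10 q, equal numbers of peaks, own-TSS intervals only, other motif windows and a stricter overlap. Some results for marker and pathway genes and 1 sequence window are not reported here.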

Additional observations from a re-analysis of the deposited data

How the results depend on the processing

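With 1 library per condition, no replicate could be left out and no value has a replicate spread, so the alternatives show dependence on processing only. No paired analysis was possible because the result comes from no test. The ratio of intervals after UV to without stayed below 1 under all 7 alternatives. The ratio of covered bases was 0.998 when only intervals whose nearest coding TSS was the gene's own were kept, in place of 1.04, and the ratio of summits was 1.04 at a minimum −log10 q of 5, in place of 0.932. The number of AP-1 genes with a TSS interval only after UV was 1 (FOS) at 1 kb, 0 at 2 kb and at 3 kb, 3 over a TSS (FOS, FOSB and ATF3), and 2 (FOS and ATF3) at a minimum −log10 q of 3 or 5 and with equal numbers of peaks. At a minimum of 5 the interval over the FOS start was removed. FOS then met the 1-kb rule only by its upstream interval, which ended 988 bp from a TSS after UV and 1041 bp without UV. Over whole intervals a TRE was found in 18.8% of AP-1 intervals without UV and 17.5% after UV, against 11.4% and 10.5% of all intervals. A longer interval holds a given string more readily, and AP-1 intervals were longer. Their median width was 501.5 bp without UV and 610 bp after UV, against 435 bp and 449 bp in the lists. The part of length in these shares was not tested. The difference in covered bases turned for FOSB at a minimum −log10 q of 5 (-665 bp), for FOSL1 with a 20-kb window (643 bp), for JUN at a minimum of 5 (42 bp), and for JUND with 5 kb (-545 bp), 20 kb (-924 bp), the canonical TSS alone (-335 bp), a minimum of 5 (-1008 bp) and own-TSS intervals (-810 bp). FOS, FOSL2, JUNB and ATF3 kept their direction under all 7, but at a minimum of 5 the difference for FOS was 34 bp in place of 296 bp and for JUNB -4 bp in place of -1291 bp. The unknown depth limits what the absence of a peak shows.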
